A study of Mus musculus with 2 samples.

Results

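DNase-seq maps open chromatin, the stretches of DNA that the enzyme DNase I can cut because nucleosomes do not cover them. The report describes the 4 Mef2 genes of the mouse, Mef2a, Mef2b, Mef2c and Mef2d, chosen by name as the whole gene family out of 21938 protein-coding genes, together with 140 open regions that belong to them out of 136714 open regions found in both replicates. The family was taken up with the peak scores and hotspot widths of these libraries known, the wide hotspot downstream of Mef2c among them, so its values are given as a description, with no test. The tissue was hindbrain of B6NCrl mice at postnatal day 0, healthy, with males and females pooled, in 2 biological replicates that form 1 group. There is no second genotype, treatment or age, and both replicates are recorded under the same donor entry, so the spread between them may be technical.

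MEF2 proteins are transcription factors of the MADS-box family that bind AT-rich DNA and were first described in muscle. In the brain they take part in neuronal differentiation, survival and the activity-dependent control of synapse number. Calcium signals act on them through kinases, the phosphatase calcineurin and class IIa histone deacetylases, which hold MEF2-bound genes silent until they are released. Mef2a, Mef2c and Mef2d are known from neurons, and loss of one copy of human MEF2C causes a neurodevelopmental disorder. Mef2b is best known from germinal-centre B cells.

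Replicate 1 had 271150 peaks and replicate 2 had 172002, and the broader hotspots numbered 240650 and 151801. Read depth is unknown, since the tables give regions and no read counts. Each peak carries a score from 1 to 150 given by the authors, whose meaning is not stated; its median was 45 in replicate 1 and 38 in replicate 2, so scores are compared by rank within a replicate. The tissue label was checked by marker promoters: 12 of 13 hindbrain markers were open at a promoter in both replicates, and Ptf1a had a peak in replicate 1 only. The counts were 2 of 7 for forebrain, 1 of 7 for skeletal muscle, 2 of 5 for B lymphoid, 2 of 5 for microglia and 1 of 5 for endothelial markers. Among the B lymphoid markers, Pax5 was open with scores of 127 in replicate 1 and 90 in replicate 2 and Cd22 with 84 and 57, and Cd79a had no promoter peak in either replicate. Among the muscle markers, Mylpf was open with 137 and 128, Myod1 had a peak of 47 in replicate 1 only, and Myog and Ckm had none. In bulk tissue, a region that is open in few cells and a region that is weakly open in many cells cannot be told apart.

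All 4 Mef2 genes had a peak of each replicate within 500 bp of at least 1 annotated start site, a state shared by 66.3% of protein-coding genes. The best promoter score was 135 in replicate 1 and 126 in replicate 2 for Mef2a, and 134 and 130 for Mef2b. It was 121 and 106 for Mef2c, and 143 and 136 for Mef2d. Over all 14541 genes that were open at a promoter in both replicates, the medians were 129 and 109. By mean rank among these genes, Mef2d stood at percentile 95.3, Mef2b at 75.8, Mef2a at 72.7 and Mef2c, below the middle, at 42.2. Mef2d was first in both replicates. Mef2c was last in both with these values, but the Mef2b value comes from a region shared with other genes, and at the start sites of Mef2b alone the scores were 105 and 83, below those of Mef2c. Mef2a and Mef2b differed by 1 point in replicate 1 and by 4 points in the other direction in replicate 2. Promoter hotspots of all 4 genes reached the cap of 100 of the hotspot measure, the −log10 of a q-value, in both replicates, as did 34.8% of all hotspots in replicate 1 and 34% in replicate 2; the share among promoter hotspots of all genes was not computed.

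**Figure D1:**
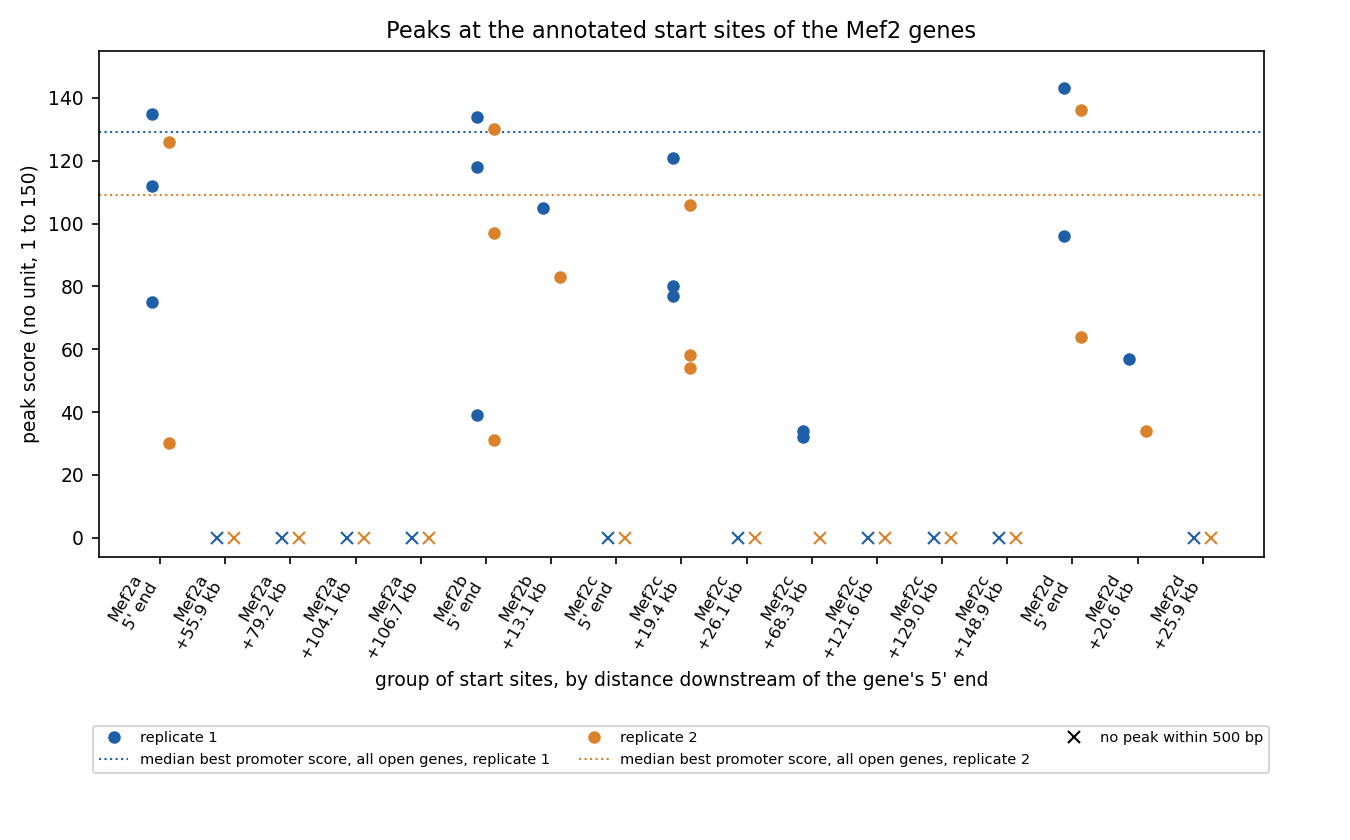
Peak score (vertical axis, no unit) at each group of annotated start sites of the Mef2 genes (horizontal axis, kb from the 5′ end). Each dot is 1 peak between 500 bp before the first and 500 bp after the last start site of a group. Crosses mark groups with none, and dotted lines are the medians of the best promoter score over all genes with an open promoter. Mef2a, Mef2b and Mef2d were open at the 5′ end, and Mef2c was open in the group that begins 19.4 kb downstream of it, with best scores of 121 in replicate 1 and 106 in replicate 2.

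Mef2d, a factor linked in rat cerebellar granule neurons to survival, had the strongest promoter of the family. The gene lies on chr3:88142372-88172086 of mm10, plus strand, and the identifier is ENSMUSG00000001419.17. Of its 6 annotated start sites, 5 had a peak in both replicates. The 4 at the 5′ end shared peaks with scores of 143 and 96 in replicate 1 and of 136 and 64 in replicate 2, and 1 start site 20.6 kb downstream had a weaker peak, with 57 in replicate 1 and 34 in replicate 2. The promoter window of RefSeq (GRCm38.p6, the mm10 build), from 250 bases before the start site to 50 after it, is shown because the strongest Mef2 peak lies in it. Capitals mark 2 GC boxes, GGGCGG searched on both strands, a motif held by 35.7% of 32851 RefSeq promoter windows of the same length. The window is chr3:88142122-88142421, plus strand:
Mef2d promoter: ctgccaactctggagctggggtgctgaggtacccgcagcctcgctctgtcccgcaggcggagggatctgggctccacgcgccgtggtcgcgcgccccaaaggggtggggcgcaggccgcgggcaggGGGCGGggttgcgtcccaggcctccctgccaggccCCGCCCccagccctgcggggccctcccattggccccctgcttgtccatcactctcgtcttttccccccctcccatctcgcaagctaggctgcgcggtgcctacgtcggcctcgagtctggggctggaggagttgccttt
Its GC content is 72.0%, against a median of 52.7% over all these windows.

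Mef2a lies on chr7:67231163-67372858, minus strand, identifier ENSMUSG00000030557.17. MEF2A was linked to dendrite maturation in rat cerebellar granule neurons. Of its 7 start sites, the 2 at the 5′ end, used by 7 of 12 annotated transcripts, had peaks in both replicates. The 5 start sites 55.9 to 106.7 kb downstream had a peak in neither replicate. The main promoter region, chr7:67372796-67372985, scored 135 in replicate 1 and 126 in replicate 2 and overlaps the first exon. A second region in the first intron, chr7:67372156-67372485, scored 75 and 30, so the replicates differed more there. A further peak, 353 bp upstream of the start site, scored 112 in replicate 1 and was not found in replicate 2. The promoter window, chr7:67372809-67373108, minus strand, is shown because it holds, in capitals, a full match to the MEF2 consensus:
Mef2a promoter: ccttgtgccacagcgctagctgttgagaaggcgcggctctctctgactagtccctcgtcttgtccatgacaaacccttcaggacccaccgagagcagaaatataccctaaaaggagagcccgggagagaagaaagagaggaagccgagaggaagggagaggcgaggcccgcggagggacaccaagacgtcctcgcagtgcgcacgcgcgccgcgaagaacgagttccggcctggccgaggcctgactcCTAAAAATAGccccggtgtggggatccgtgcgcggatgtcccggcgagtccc
The match starts 2 bases before the annotated start site and run across it, inside the peak. The same letters were found, on either strand, in 36 of 32851 RefSeq promoter windows, or 0.11%. Among the windows of the other Mef2 genes, 1 for Mef2b, 3 for Mef2c and 1 for Mef2d, none held them. A match of letters is not evidence of binding.

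Mef2b lies on chr8:70139711-70167488, plus strand, identifier ENSMUSG00000079033.10, and its promoter values were not its own alone. Its best region, chr8:70139236-70139385, lies 401 bp upstream of the 5′ end, and its nearest start site is that of Rfxank, a gene for a subunit of the RFX complex that acts on MHC class II promoters. The region at the 5′ end, chr8:70139576-70139745, scored 118 in replicate 1 and 97 in replicate 2 and also overlaps Borcs8, a gene for a subunit of the lysosome-positioning BORC complex. The start sites that belong to Mef2b alone lie 13.1 kb downstream, and 4 of its 5 transcripts start there. The single region at them, chr8:70152636-70152785, scored 105 in replicate 1 and 83 in replicate 2, below the medians of 129 and 109. Its RefSeq promoter window, chr8:70152511-70152810, plus strand, is given for comparison with Mef2d, with 2 GC boxes in capitals:
Mef2b promoter: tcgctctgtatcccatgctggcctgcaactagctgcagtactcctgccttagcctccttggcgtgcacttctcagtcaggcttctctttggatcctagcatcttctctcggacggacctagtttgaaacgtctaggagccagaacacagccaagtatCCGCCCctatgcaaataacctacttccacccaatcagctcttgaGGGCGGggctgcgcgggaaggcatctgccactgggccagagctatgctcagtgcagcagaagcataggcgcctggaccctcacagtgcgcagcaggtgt
Its GC content is 57.0%, with 11 CpG dinucleotides against 24 in the Mef2d window and 27 in the Mef2a window.

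Mef2c, which lies on chr13:83504034-83667080, plus strand, identifier ENSMUSG00000005583.16, was not open at its annotated 5′ end. The 3 start sites there, used by 6 of 31 annotated transcripts, had no peak in either replicate. The open start sites form a group of 11 that begins 19.4 kb downstream, at chr13:83523473-83524920. The strongest peak there, chr13:83524736-83524885, scored 121 in replicate 1 and 106 in replicate 2. A second region, chr13:83523756-83523965, scored 80 and 58. In another group of 9 start sites, 68.3 kb from the 5′ end, 2 had a peak of 32 within 500 bp in replicate 1. A peak of 34 in replicate 1 lay between start sites of the group, over 500 bp from each. Replicate 2 had no peak there. In all, 11 of 27 Mef2c start sites had a peak in both replicates, 2 in replicate 1 only and 14 in neither. A 5′ end not open in both replicates, with another start site that was, was found in 1232 protein-coding genes, 5.62% of all. This count is looser than the state of Mef2c, since it includes 5′ ends with a peak in 1 replicate.

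The sequences of the closed and the open start of Mef2c are shown because they differ in CpG content, which often goes with open promoters; capitals mark each CpG. The closed 5′ end window is chr13:83503784-83504083 and the peak over the open start is chr13:83524736-83524885, both on the plus strand:
Mef2c closed 5′ end: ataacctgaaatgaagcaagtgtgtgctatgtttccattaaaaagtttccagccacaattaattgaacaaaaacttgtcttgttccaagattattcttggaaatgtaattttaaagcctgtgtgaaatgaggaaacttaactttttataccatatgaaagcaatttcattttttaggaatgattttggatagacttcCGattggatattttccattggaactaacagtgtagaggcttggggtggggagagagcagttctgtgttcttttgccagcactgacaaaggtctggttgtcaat
Mef2c open start: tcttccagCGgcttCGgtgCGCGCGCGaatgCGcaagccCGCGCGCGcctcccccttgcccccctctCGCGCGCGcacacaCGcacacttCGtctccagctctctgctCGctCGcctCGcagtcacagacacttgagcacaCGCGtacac
The closed window holds 1 CpG in 300 bases with a GC content of 35.7%, and the open peak holds 22 CpG in 150 bases with a GC content of 68.7%. A RefSeq window of the same length at the first start of the open group, chr13:83523406-83523705, overlaps no peak and holds 10 CpG in 300 bases with a GC content of 47.0%. The CpG ratio within 500 bp of the start site, observed over the number that base composition predicts, was 0.296 at the Mef2c 5′ end and 0.668 to 0.730 at the 11 open starts. It was 0.888 at the 5′ end of Mef2a, 0.706 at that of Mef2b and 0.840 at that of Mef2d. The median was 0.703 over the 14541 genes with an open promoter and 0.174 over the other 7397 genes. The role of CpG content in the openness of these starts was not tested.

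Counts of regions away from start sites ranged widely among the members. Within the gene body, and over 500 bp from every start site, Mef2a had 5 open regions, Mef2b 2, Mef2c 18 and Mef2d 5, against a median of 1 over all protein-coding genes. Per 100 kb of gene length, Mef2a had 3.53, Mef2b 7.20, Mef2c 11.0 and Mef2d 16.8, against a median of 1.20. By this density Mef2a stood at percentile 59.4 of all genes and Mef2d at 92.7. Distal regions are those over 500 bp from every start site, each given to the protein-coding gene with the closest start site. Mef2a had 11 of these, Mef2b 1, Mef2c 91 and Mef2d 22, against a median of 2 and a mean of 4.90 over all genes. More distal regions than Mef2c were assigned to 7 genes, and more than Mef2d to 980. With hotspots in place of peaks these numbers were 73 and 1937. The territory, which is the stretch of genome nearer to a gene's start sites than to those of any other protein-coding gene, measured 209 kb for Mef2a, 16.0 kb for Mef2b, 1290 kb for Mef2c and 86.7 kb for Mef2d. Per 100 kb of territory, Mef2d was the densest with 25.4 distal regions, percentile 98.6 of all genes. Mef2c had 7.06, Mef2b 6.23 and Mef2a 5.26, against a median of 3.50. Over the 1029 genes with territories of 500 to 2000 kb, Mef2c included, the median was 21 distal regions and the mean 24.3. Assignment to the nearest start site does not show which gene a region acts on. With the start sites of every annotated gene, noncoding included, Mef2c had 25 distal regions, Mef2d 9, Mef2a 2 and Mef2b 1.

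**Figure D2:**
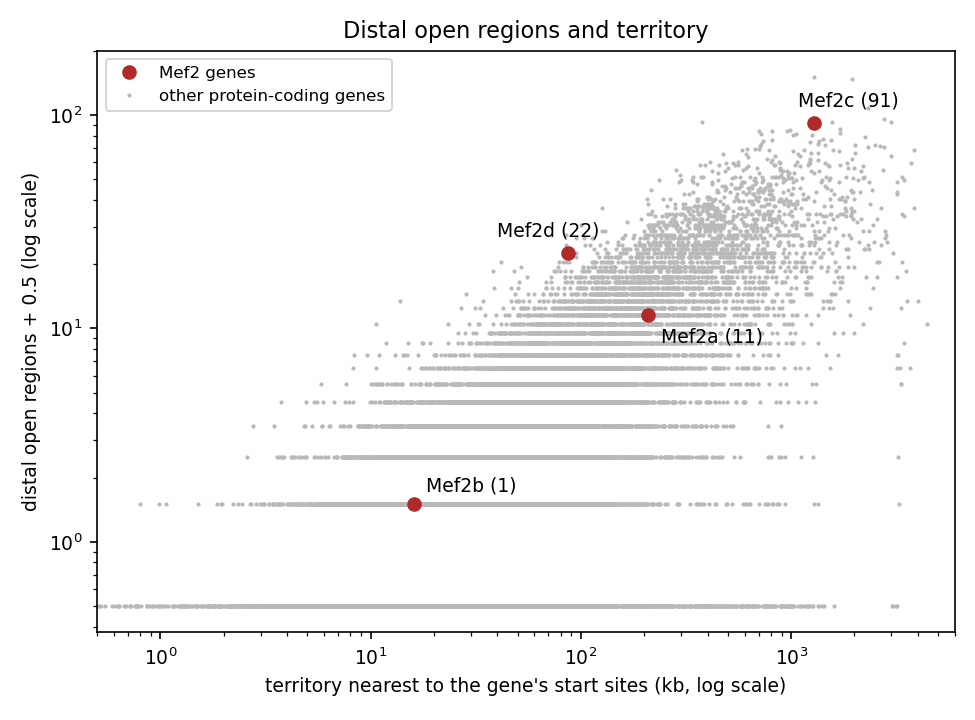
Distal open regions, plus 0.5 so that 0 can be drawn, against the length of a gene's territory in kb, both on log scales, with 1 grey dot per protein-coding gene and the Mef2 genes in red. Mef2d, with 22 regions in 86.7 kb, lies at the upper edge of the genes with a territory of its length, and Mef2c, with 91 regions in 1290 kb, lies near the top of the plot.

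Around Mef2d all 22 distal regions lay within 100 kb of the 5′ end, and 11 of these within 50 kb. By place, 4 of the 22 lay upstream, 5 inside and 13 downstream. The strongest was chr3:88138396-88138545, 3.90 kb upstream, with a score of 124 in both replicates. Its mean score percentile over the replicates was 97.1, below the 99.6 of the strongest Mef2d promoter region. Next came chr3:88205696-88205885, 63.4 kb downstream of the 5′ end, with 114 in replicate 1 and 93 in replicate 2, and an intronic region at chr3:88152236-88152385 with 106 and 79. The other distal regions had scores of 27 to 105 in replicate 1 and of 20 to 76 in replicate 2. The last 4 regions before the border of the territory were weak, 27 to 38 and 20 to 24, and lie in Gm3764, a noncoding gene that contains the microRNA gene Mir9-1. All 13 downstream regions, 31.2 to 69.1 kb from the 5′ end, lie on the side of Mir9-1 and count in the Mef2d density of 25.4 per 100 kb.

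Mef2a had 9 distal regions upstream, 2 inside and none downstream. The 5 farthest upstream regions clustered 63.3 to 73.0 kb from the 5′ end, and 3 of them overlap Gm33926, a lincRNA gene. Their scores were 60 to 93 in replicate 1 and 36 to 67 in replicate 2. Between the promoter cluster and the far end of the gene, from 1.01 to 113 kb downstream of the 5′ end, no region was open in both replicates. Of its 5 gene body regions, 4 lie where Mef2a overlaps Lysmd4, and 3 of these are nearest to a Lysmd4 start site. Mef2b had 1 distal region, in an intron at chr8:70158436-70158605, with 115 in replicate 1 and 95 in replicate 2, and an exonic region near its 3′ end, chr8:70166816-70166985, with 97 and 82. The intronic region outscored the region at the gene's own start sites in both replicates, and the exonic region lay 8 points below it in replicate 1 and 1 point below it in replicate 2.

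**Figure D3:**
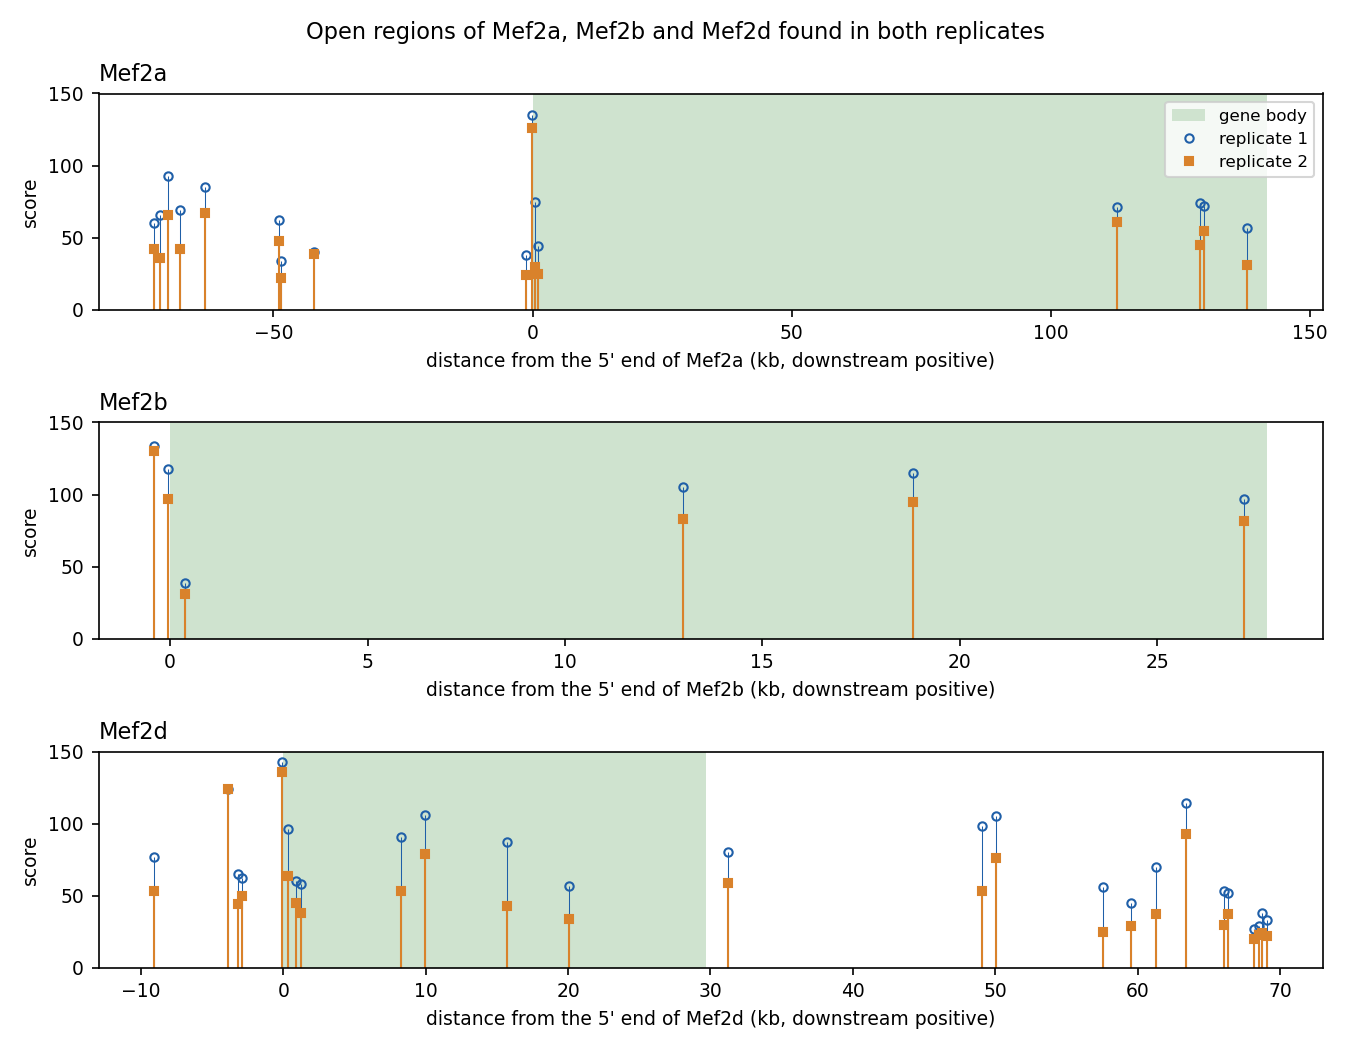
Score (vertical axis, no unit) of each region found in both replicates against its distance in kb from the 5′ end of Mef2a, Mef2b and Mef2d, with open circles for replicate 1, filled squares for replicate 2 and the gene body shaded. The Mef2d region 3.90 kb upstream scored 124 in both replicates, and Mef2a had no shared region between 1.01 and 113 kb inside the gene.

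The regions of Mef2c fell into zones. Upstream, 20 regions were spread over 611 kb, 0.327 per 10 kb, and were weak, with a median score of 29 in replicate 1 and 23 in replicate 2 and a highest score of 66 and 49. Inside the gene, 18 regions had medians of 60.5 and 42.5. The strongest of these were chr13:83518416-83518585, 14.5 kb from the 5′ end, with 100 and 83, and chr13:83654996-83655165, 151 kb from it, with 90 in replicate 1 and 97 in replicate 2. A gap of 43.8 kb after the 3′ end held none. Then 40 distal regions lay within 36.1 kb, 11.1 per 10 kb, with medians of 71 and 53.5, and 13 more followed over 133 kb. Of the 91 distal regions, 76 lay over 100 kb from the 5′ end of the gene.

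**Figure D4:**
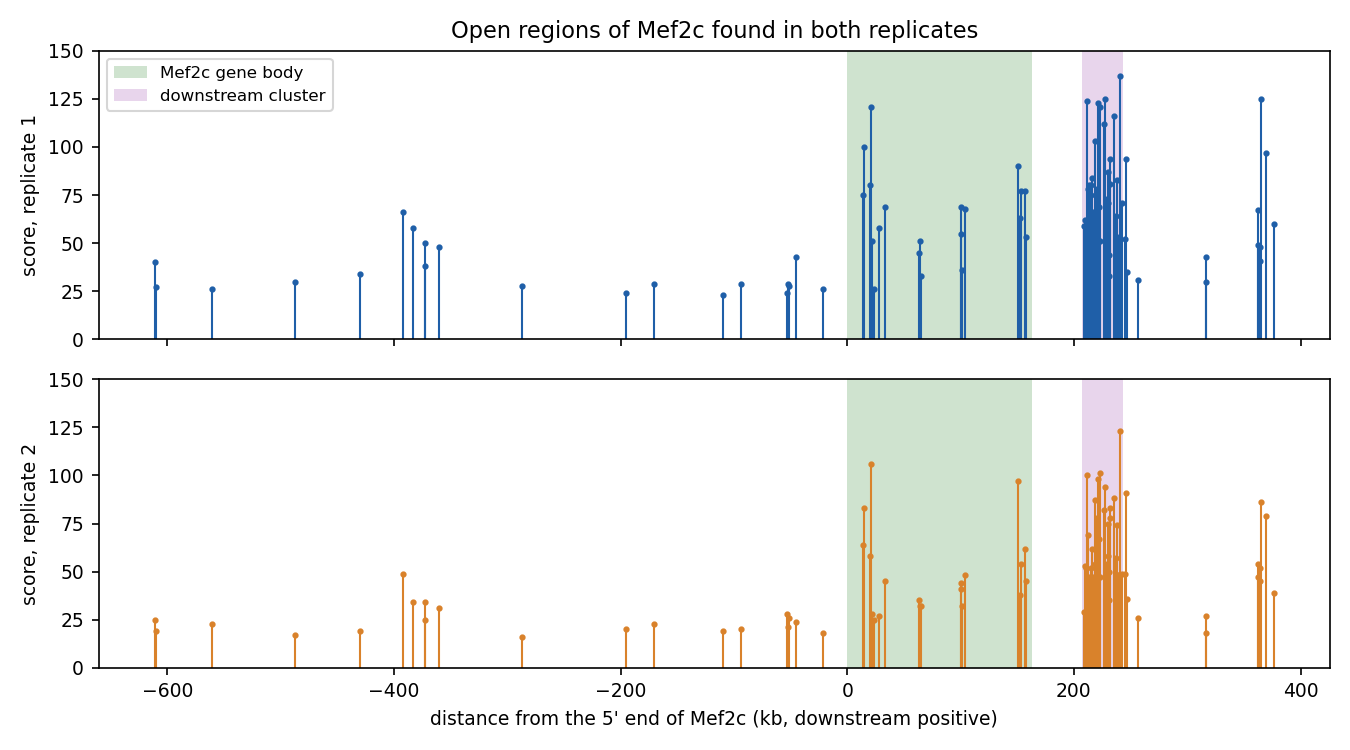
Score of each Mef2c region found in both replicates (replicate 1 above, replicate 2 below; no unit) against distance from the 5′ end of the gene in kb, with the gene body in green and the downstream cluster in purple. The 20 upstream regions stay at or below 66 in replicate 1 and 49 in replicate 2, and the cluster reaches 137 and 123.

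The cluster is a block in which hotspots follow each other with short gaps. Hotspots of both replicates that lie within 1000 bp of each other, merged, spanned chr13:83710879-83746966, 36088 bp, the widest of 99808 such stretches in the genome. Each replicate gave the same rank alone, with 34351 bp in replicate 1 and 34239 bp in replicate 2, and hotspots covered 31203 bp and 32419 bp of the merged stretch. Within it lay 61 peaks of replicate 1 and 60 of replicate 2, and 51 of each were found in the other. The stretch holds 50 shared regions, 10 of them within 500 bp of the start site of a noncoding gene and thus not counted as distal. It overlaps the lincRNA genes C130071C03Rik and Gm26803, the unclassified transcript Gm33366, and Mir9-2. The next protein-coding gene downstream, Tmem161b, starts 555 kb past the 3′ end of Mef2c.

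The strongest region of the cluster, chr13:83745056-83745225, scored 137 in replicate 1 and 123 in replicate 2, above the Mef2c promoter in both. It lies 241 kb from the Mef2c 5′ end, inside C130071C03Rik. Its sequence on the plus strand, with each CpG in capitals, is given because it is the strongest distal region of any Mef2 gene by mean rank:
Mef2c downstream region: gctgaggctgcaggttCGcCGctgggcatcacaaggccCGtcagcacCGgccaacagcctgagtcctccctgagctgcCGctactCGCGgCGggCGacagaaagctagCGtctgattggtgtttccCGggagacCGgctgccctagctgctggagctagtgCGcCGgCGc
It holds 15 CpG in 170 bases, and its GC content is 67.6%, while the median over the Mef2c regions was 44.0% in windows of 200 bp.

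When only overlapping hotspots were merged, the widest stretch downstream of Mef2c was chr13:83734675-83742945. At 8271 bp it was the widest of 118334 in the genome, of which 0.803% were 2500 bp or more; the second widest measured 8062 bp. This rank rests on replicate 2, where the stretch was a single hotspot. In replicate 1 the same interval held 9 hotspots covering 7470 bp, the widest of them 3549 bp and 92nd in that replicate's own order, and the widest hotspot downstream of Mef2c in replicate 1 was another one, of 5660 bp, which ranked 7th. The interval held 16 peaks in replicate 1 with scores of 29 to 116 and 13 peaks in replicate 2 with scores of 35 to 88, and 11 of each were found in the other replicate. Between Mef2c and Tmem161b, 6 of 39 merged hotspots measured 2500 bp or more.

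Mir9-2 lies at chr13:83738814-83738885, 71.7 kb past the 3′ end of Mef2c, inside the widest hotspot. It encodes miR-9, a brain-enriched microRNA that acts in neural progenitors. RefSeq gives the same mature 5p sequence for Mir9-1, Mir9-2 and Mir9-3, shown with the seed, bases 2 to 8, in capitals:
miR-9-5p: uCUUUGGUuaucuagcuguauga
The other loci, looked at after the values at Mir9-2 were seen, differed with the merging. When only overlapping hotspots were merged, the Mir9-1 hairpin lay in no stretch shared by both replicates, and that of Mir9-3 lay in one of 1718 bp, ranked 4175th, against 8271 bp at Mir9-2. With hotspots merged within 1000 bp, the stretches measured 19782 bp at Mir9-1, ranked 9th, and 27771 bp at Mir9-3, ranked 3rd. Mir9-1 lies 43.5 kb past the 3′ end of Mef2d, with Rhbg, an ammonium transporter gene, as its nearest protein-coding gene. Mir9-3 is on the chromosome of Mef2a but 12274 kb from it. Within 500 bp of the hairpin, Mir9-1 had 4 peaks in replicate 1, the best at 80, and none in replicate 2. Mir9-2 had 2 peaks in replicate 1, the best at 76, and 1 in replicate 2, at 64. Mir9-3 had 2 and 1, with best scores of 141 and 122.

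Few of the Mef2 regions held the MEF2 sequence, in shares above those of all shared regions, with intervals that include the latter. In the central 200 bp of each, searched on both strands, the exact consensus, as in the capitals of the Mef2a promoter, was present in 2 of 140 regions, 1.43% (95% exact Clopper-Pearson interval 0.173% to 5.07%), against 0.184% of all shared regions. A loose form, CTA and TAG with any 4 bases between them, which includes the exact one, was present in 6, 4.29% (1.59% to 9.09%), against 2.53%. Besides the Mef2a promoter, the exact letters lay in a Mef2c intron, 100 kb from the 5′ end, in a region with 55 in replicate 1 and 44 in replicate 2. It is shown as the second exact match, with the letters in capitals, chr13:83603976-83604125, plus strand:
Mef2c intron region: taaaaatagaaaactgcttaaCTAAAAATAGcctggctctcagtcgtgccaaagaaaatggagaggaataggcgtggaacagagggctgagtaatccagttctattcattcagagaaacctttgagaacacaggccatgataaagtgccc
The 4 regions with the loose letters alone all belonged to Mef2c, 3 of them upstream of the gene with scores of at most 43. The E-box CAGCTG was present in 25 of the 140 regions, 17.9%, against 19.2% of all shared regions. The GC box GGGCGG was present in 15, 10.7%, against 14.7%, and the AP-1 site TGANTCA in 7, 5%, against 6.22%. The cyclic AMP response element TGACGTCA was present in 2, 1.43%, against 0.714%. The palindromic NFI motif was found in 0, with an interval of up to 2.60%, against 0.196%. The intervals of these shares cover counting error only.

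Recovery of the Mef2 peaks in the other replicate was compared between lists of unequal length, 270757 peaks in replicate 1 and 171790 in replicate 2. Replicate 1 had 210 Mef2 peaks, and 141 of them were also found in replicate 2, 67.1% (60.3% to 73.5%), against 51.6% of all its peaks. Replicate 2 had 192, and 150 of them were also found in replicate 1, 78.1% (71.6% to 83.8%), against 82.5%. With lists of equal length the order turned, to 81.7% for replicate 1 and 62.0% for replicate 2, against 71.0% and 72.2% of all peaks. In the full lists, the Mef2c peaks, 143 and 131 of these, had 66.4% and 76.3%. Spearman's rho between the replicates' scores was 0.877 over 93 Mef2c regions, 0.956 over 25 Mef2d regions and 0.793 over 16 Mef2a regions, against 0.913 over all shared regions, as a description of regions that share their libraries. The score was higher in replicate 2 at 13 of 140 Mef2 regions, 9.29%, against 2.92% of all shared regions. All 13 belonged to Mef2c: 8 of its 40 in the cluster, 3 of the 13 beyond it, 1 of 20 inside the gene and 1 of 20 upstream. Replicate 1 alone placed 51 genes above Mef2c by number of distal regions, and replicate 2 alone placed 3. Whether the makeup of the tissue samples has a part in this was not tested.

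Promoters were also looked at in a list of 33 genes that act on MEF2 or are reported to respond to it, drawn up with earlier results of these data known, so that the count is a description only. All 33 had a peak of each replicate at a promoter, against 66.3% of all protein-coding genes. Scores are given for the top 3 genes of each group by mean rank, so lower ones are mostly left out. Among the class IIa deacetylases and repressors, which bind MEF2 and keep it inactive, Hdac4 scored 143 in replicate 1 and 146 in replicate 2, Hdac5 143 and 134, and the calcineurin-binding repressor Cabin1 140 and 122. Hdac7 with 111 and 71 and Hdac9 with 115 and 67 lay below the medians of 129 and 109 over all genes with an open promoter. Among the 11 kinases and phosphatases, Cdk5, a neuronal kinase that phosphorylates MEF2, scored 149 and 139. The p38 kinase gene Mapk14 scored 145 and 141, and the calcineurin regulatory subunit Ppp3r1 147 and 133. The medians of the 11 were 136 and 117, and their lowest scores were 97 in replicate 1 and 56 in replicate 2. The 5 coactivators were led by the arginine methyltransferase gene Carm1 with 145 and 138, Maml1 with 142 and 136 and the acetyltransferase gene Ep300 with 143 and 131. Srf, the other well-known MADS-box factor of animals, scored 150 and 132. Of 11 genes reported as neuronal MEF2 targets, the ubiquitin ligase gene Ube3a scored 145 and 141, and the protocadherins Pcdh10 and Pcdh17 scored 146 and 126, and 136 and 129. The medians of the target list, 123 and 104, lay below the medians of 129 and 109 over all genes with an open promoter. When other start sites were left aside and the 5′ end alone was used, 29 of the 33 were open, without Camk4, Hdac7, Hdac9 and Homer1, and 3 of the 4 Mef2 genes, against 60.7% of all genes.

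Genes with a pattern most like each member were sought over 4 values, namely territory length, gene body regions, distal regions and mean rank of the promoter score, among 14540 other genes with an open promoter in the 2 replicates. For Mef2c these were Fam19a5, with 74 distal regions, and Meis1, with 85, at distances of 0.246 and 0.340 in SD units. For Mef2d, Ccdc167, with 16 distal regions, was among them at 0.385. Mef2a had nearer neighbours, Epc1 with 11 and Smad1 with 12 distal regions, at 0.0849 and 0.0874, and so had Mef2b, Vps16 and Ap3m1, each with 1, at 0.0241 and 0.0322.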

How the data were processed

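DNase-seq peaks and hotspots of 2 hindbrain libraries were analysed as deposited, on mm10 per the labels. Each replicate has its own lists; the aligner and the caller with its thresholds: not given in the sources used here. Within the deposited peak tables the authors give each 150 bp peak a score whose scale is not stated. In the deposited hotspot tables the authors give the −log10 of a q-value, capped at 100, a value that 34.8% and 34% of hotspots reached. Read depth is unknown; intervals cover counting error only.

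Features on main chromosomes were kept, 270757 and 171790 peaks. Peaks of both replicates were merged at an overlap of 1 bp, and regions holding a peak of each were kept as shared. Genes and start sites came from GENCODE vM21 (GRCm38, the same build). A promoter was 500 bp either side of any annotated start site. The regions nearest to that limit on either side, by distance to a start site of any gene, noncoding included, differed in score by member. For Mef2d, a region 415 bp from a start site scored 57 and 34, and one at 618 bp scored 56 and 25. For Mef2a the scores were 75 and 30 inside the limit and 93 and 66 outside it. They were 80 and 58 against 66 and 47 for Mef2c. For Mef2b they were 39 and 31 against 97 and 82, the latter at 5371 bp. The outside regions of Mef2d, Mef2a and Mef2c lay 31584, 70278 and 67588 bp from the nearest start site of a protein-coding gene. With protein-coding start sites only, the nearest outside region of Mef2d scored 60 and 45, at 642 bp. That of Mef2a scored 44 and 25, at 882 bp, and that of Mef2c 51 and 28, at 1296 bp. A region belonged to a Mef2 gene if it lay at its promoter, in its gene body or nearest to its start sites. Sequences came from RefSeq. With 1 group and no second condition, no test was made. The members and gene lists were chosen with earlier results of these data known. Named genes are the members, the top 3 of each pathway list by mean rank, pathway genes without a promoter peak, the 2 genes most like each member, and those at the downstream domain. A gene that this rule would name is not reported here. Python 3.11.15, pandas 2.3.3, scipy 1.17.1 and pysam 0.24.0 were used, and the overlap steps were tested on simulated data. Alternatives were a wider promoter window, the 5′ end only, stronger peaks, reciprocal overlap, hotspots, each replicate alone, lists of equal length and any gene's start site.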

Additional observations from a re-analysis of the deposited data

How the results depend on the processing

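The promoter counts stayed close to the values given, and the motif shares stayed within wide intervals. The region counts, the recovery shares and the width of the downstream hotspot each moved under at least 1 setting. The 4 Mef2 genes and 33 pathway genes with a promoter peak in both replicates were 3 and 29 with the 5′ end only, and 4 and 33 under the other settings tried, namely a window of 1000 bp, stronger peaks, hotspots and either replicate alone. The 30 gene body regions of the family ranged from 32 to 50 with a replicate left out. The 125 distal regions fell to 68 among peaks with scores at or above the median of their own list, to 75 with hotspots and to 37 with the nearest start site of any gene, and ranged from 166 to 190 with a replicate left out. Without the Mef2c cluster, an alternative added after seeing the data, 85 distal regions remained, 51 of them of Mef2c, and 114 genes then had more than Mef2c. Recovery of Mef2 peaks of replicate 1 was 59.5% with a reciprocal overlap of 50%, where all peaks had 47.4%. With lists of equal length it was 81.7%, where all peaks had 71.0%. Recovery of Mef2 peaks of replicate 2 was 67.7% and 62.0% under the same 2 settings, where all peaks had 75.2% and 72.2%. The widest downstream hotspot ranged from 5660 to 8271 bp with a replicate left out and measured 36088 bp after merging within 1000 bp. The share of regions with the MEF2 letters stayed within its interval under every setting tried, but the intervals are wide and exclude little. With stronger peaks, 79 regions, the loose share fell from 4.29% to 2.53% and the exact share rose from 1.43% to 2.53%. With reciprocal overlap they were 3.2% and 1.6%. The loose share over all shared regions, without that limit on score, was 2.53%. Recovery has no value for a replicate alone, and the cause of these shifts was not tested. No paired analysis was possible because there is 1 group.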
